A study of Mus musculus with 6 samples.

Results

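The 6 genes described here make up or equip the red blood cell, and were read as a measure of the blood RNA in muscle libraries. They are the adult alpha globins Hba-a1 and Hba-a2, the adult beta globins Hbb-bs and Hbb-bt, Alas2 and Slc4a1. They were chosen by symbol and joined by gene identifier to the count table, and are 6 of its 45777 genes. Only 5 of the 6 have a TPM value, a level scaled for transcript length and library size, because Slc4a1 is not listed among the 16800 genes with TPM that were used here.

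RNA came from the tibialis anterior (TA), a muscle of the lower leg, of male C57BL/6J mice that were 24 months old per the labels, while the study's text also gives older ages. Of these, 3 were injected intraperitoneally with a DMSO and Tween vehicle and 3 with BML-260 at 5 mg/kg once a day for a month. BML-260 is a small molecule that the study uses to inhibit the phosphatase DUSP22. Each library came from 1 mouse and held between 39522890 and 56998875 counts. The labels name no transgene or deletion. The labels name a stranded total RNA kit, and neither globin depletion nor perfusion of the mice is described in the sources used here. The source of these transcripts in the libraries, blood or another tissue, was not tested.

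Red blood cells carry hemoglobin, a tetramer of paired alpha and beta globin chains that each hold a heme group. Their precursors, the erythroblasts of bone marrow and spleen, transcribe the globin genes, the heme enzymes and the membrane proteins at a high rate. They then lose the nucleus and enter the blood as reticulocytes, whose RNA decays within days, so that globin transcripts outlast most others. In muscle, these transcripts are a well-known sign of blood in the tissue, whereas the oxygen store of the fiber itself is myoglobin.

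The copies within each globin pair are nearly the same gene, which limits how far their counts can be told apart. Hba-a1 (gene 15122, chr11:32283672-32284486, plus strand) and Hba-a2 (gene 110257, chr11:32296492-32297310, plus strand) differed at 1 of 426 coding bases and at 0 of 142 residues. Hbb-bs (gene 100503605, chr7:103826523-103827928, minus strand) and Hbb-bt (gene 101488143, chr7:103812524-103813923, minus strand) differed at 1 of 441 coding bases and at 0 of 147 residues. All coordinates are of the mouse build GRCm38, which is also named mm10. The 90-base stretches below, from the last exon, hold the only coding difference of each pair, which is the base in capitals. It is C381T from Hba-a1 to Hba-a2 and C417T from Hbb-bs to Hbb-bt, counted from the first coding base, and both are silent.
Hba-a1, chr11:32284298-32284387, plus strand: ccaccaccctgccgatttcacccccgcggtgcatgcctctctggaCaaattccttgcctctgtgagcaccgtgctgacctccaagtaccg
Hba-a2, chr11:32297115-32297204, plus strand: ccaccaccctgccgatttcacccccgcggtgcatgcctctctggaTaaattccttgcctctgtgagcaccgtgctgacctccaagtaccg
Hbb-bs, chr7:103826668-103826757, minus strand: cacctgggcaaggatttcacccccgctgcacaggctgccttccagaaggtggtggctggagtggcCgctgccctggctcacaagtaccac
Hbb-bt, chr7:103812659-103812748, minus strand: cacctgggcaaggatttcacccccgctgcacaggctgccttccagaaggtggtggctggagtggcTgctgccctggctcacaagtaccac

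Of all 75-base windows in the coding sequence, 86.9% were the same in both alpha genes and 93.2% in both beta genes. A read inside such a window fits both copies, and how the authors counted such reads is not given in the sources used here. The level of 1 copy against the other is therefore uncertain, and the sum of a pair is the firmer value.

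The sequences before the start sites were searched for 4 short promoter motifs, and the members did not all hold the same ones. The 250 bases upstream of each RefSeq start site are printed for the 5 members with an entry in the promoter table. They were looked at because the levels of these genes varied together across the libraries, which rested mainly on vehicle replicate 3. Capitals mark 4 motifs. The first, GATA, was searched with 1 more base on each side, an adenine or thymine before it and an adenine or guanine after it. The second is CACCC and the third is CCAAT, and these 3 were searched on both strands, so that some stand in capitals as their reverse complement. The last, TATAA, was searched on the printed strand only.
Hba-a1, chr11:32283422-32283671, plus strand: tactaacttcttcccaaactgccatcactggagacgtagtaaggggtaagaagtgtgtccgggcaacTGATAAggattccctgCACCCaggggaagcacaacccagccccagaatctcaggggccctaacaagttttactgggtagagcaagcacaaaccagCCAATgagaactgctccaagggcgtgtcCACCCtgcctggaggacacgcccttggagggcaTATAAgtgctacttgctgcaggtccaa
Hba-a2, chr11:32296242-32296491, plus strand: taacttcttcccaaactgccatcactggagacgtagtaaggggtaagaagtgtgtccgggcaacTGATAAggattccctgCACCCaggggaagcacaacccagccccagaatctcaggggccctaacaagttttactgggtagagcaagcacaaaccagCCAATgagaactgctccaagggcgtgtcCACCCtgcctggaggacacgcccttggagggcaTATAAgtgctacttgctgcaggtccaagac
Hbb-bs, chr7:103827929-103828178, minus strand: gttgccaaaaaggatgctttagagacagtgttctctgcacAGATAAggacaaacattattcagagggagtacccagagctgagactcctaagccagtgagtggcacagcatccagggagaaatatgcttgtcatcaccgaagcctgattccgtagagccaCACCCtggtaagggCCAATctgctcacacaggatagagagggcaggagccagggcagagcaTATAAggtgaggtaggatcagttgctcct
Hbb-bt, chr7:103813924-103814173, minus strand: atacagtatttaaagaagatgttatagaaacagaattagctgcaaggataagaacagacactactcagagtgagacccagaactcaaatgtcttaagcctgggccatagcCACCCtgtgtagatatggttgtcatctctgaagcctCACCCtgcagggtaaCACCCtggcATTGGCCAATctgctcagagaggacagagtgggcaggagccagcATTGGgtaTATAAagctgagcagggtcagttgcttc
Alas2, chrX:150547167-150547416, plus strand: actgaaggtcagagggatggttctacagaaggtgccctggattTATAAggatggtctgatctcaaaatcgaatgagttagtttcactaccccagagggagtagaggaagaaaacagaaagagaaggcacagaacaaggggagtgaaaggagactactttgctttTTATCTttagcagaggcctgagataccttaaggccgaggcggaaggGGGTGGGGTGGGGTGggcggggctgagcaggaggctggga

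The upstream sequences of Hba-a1 and Hba-a2 were identical over 247 bases, at an offset of 3 bases. Those of Hbb-bs and Hbb-bt were identical at 178 of 243 aligned bases. A TATAA stood 27, 30, 29 and 28 bases before the start of Hba-a1, Hba-a2, Hbb-bs and Hbb-bt, and 207 bases before that of Alas2. The GATA motif with its flanking bases was found in 4 of the 5 sequences and not in that of Hbb-bt, CACCC in 5 of 5, and CCAAT in the 4 globin genes. In 27025 mouse promoters of the same length, this GATA motif was found in 27.1%, CACCC in 51.3%, CCAAT in 34.5% and TATAA in 16.7%. These are matches of letters only, and binding was not measured.

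In 5 of the 6 libraries the summed globins lay between 1613 and 2154 TPM, and in vehicle replicate 3 they were several times higher. The 4 adult globins summed to 1941 and 2119 TPM in vehicle replicates 1 and 2 and to 8716 TPM in vehicle replicate 3. The sums in BML-260 replicates 1, 2 and 3 were 1640, 1613 and 2154 TPM. The 10 muscle fiber markers were abundant in every library, with a summed CPM (counts scaled to library size with TMM factors) between 128394 and 155398 in the 5 other libraries and of 82824 in vehicle replicate 3. As a share of all counts, the globins took between 0.0573% and 0.0757% in those 5 libraries and 0.278% (95% Wilson interval 0.277% to 0.280%) in vehicle replicate 3. The interval covers counting error only.

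The alpha globin genes encode the alpha chain of hemoglobin. Hba-a1 measured 393, 432 and 1756 TPM in vehicle replicates 1, 2 and 3, and 285, 245 and 388 TPM in BML-260 replicates 1, 2 and 3. Its 3 BML-260 values lay below all 3 vehicle values, the nearest pair being 388 and 393 TPM. Hba-a2 measured 308, 349 and 1341 TPM in the vehicle libraries and 236, 200 and 309 TPM in the BML-260 libraries, in the same order. Here BML-260 replicate 3 lay just above vehicle replicate 1, so the groups overlapped.

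The beta globin genes encode the partner chain, and Hbb-bs was the most abundant member in every library. Hbb-bs measured 887, 947 and 4074 TPM with vehicle and 801, 839 and 1049 TPM with BML-260. Hbb-bt measured 352, 392 and 1545 TPM with vehicle and 318, 330 and 407 TPM with BML-260. For both, BML-260 replicate 3 was higher than vehicle replicates 1 and 2, and the groups overlapped. In each vehicle library Hba-a1 was above Hbb-bt in TPM, and in each BML-260 library Hbb-bt was above Hba-a1.

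Alas2 (gene 11656, chrX:150547417-150570622, plus strand) encodes the erythroid form of the enzyme that starts heme synthesis. It measured 8.02, 8.75 and 35.5 TPM with vehicle and 6.52, 5.85 and 8.04 TPM with BML-260. Slc4a1 (gene 20533, chr11:102348820-102365281, minus strand) encodes the anion exchanger of the red cell membrane. It had 31, 20 and 1140 counts with vehicle and 30, 17 and 9 counts with BML-260. Only vehicle replicate 3 held more than 31 counts of Slc4a1.

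**Figure D1:**
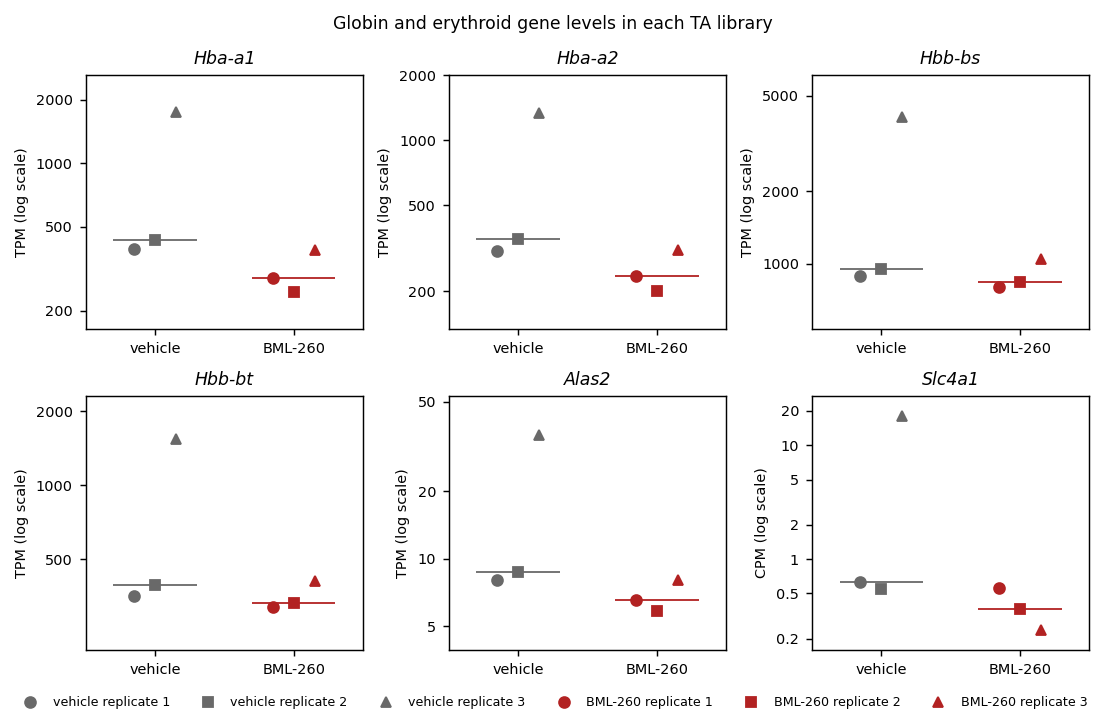
Level of each member in each library on log axes, in TPM for 5 genes and in TMM-scaled CPM for Slc4a1, which has no TPM value; horizontal lines are group medians (n = 3). Vehicle replicate 3 stands above the other 5 libraries in every panel, at 4.35 to 4.59 times their median in TPM for the globins and 33.0 times in CPM for Slc4a1.

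By the ratio to the median of the other 5 libraries, vehicle replicate 3 held 4.52 times as much Hba-a1 TPM, 4.35 times as much Hba-a2, 4.59 times as much Hbb-bs and 4.42 times as much Alas2. In TMM-scaled CPM, where vehicle replicate 3 had the highest scaling factor (1.20, against 0.914 to 1.02), the same ratios were between 3.13 and 3.31 for these genes and Hbb-bt. Slc4a1 stood apart from the others at 33.0 times in CPM. All 6 members were at least 3-fold over the median of the other 5 libraries in CPM, as were 3.9% of the 16188 genes tested. Slc4a1 per 1000 beta globin counts was 11.7 in vehicle replicate 3 and between 0.430 and 1.32 elsewhere, so that it was higher there relative to globin as well.

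A share of the other erythroid genes was near 0 except in vehicle replicate 3. Of 54 genes of heme synthesis, the red cell membrane, erythroid regulation and reticulocyte maturation other than the members, 18 had at least 20 counts in vehicle replicate 3 and at most 20 in each other library. Of the 16292 genes with at least 20 counts in some library, 4.98% did so, and for each of the other 5 libraries in turn 0 of the 54 genes did. This threshold, and the genes named for it, were chosen after their values were seen. Summed over whole lists, 3 of the 4 were not higher there: the summed CPM in vehicle replicate 3 was 0.712 times the median of the others for heme synthesis, 0.912 times for red cell membrane and 0.781 times for reticulocyte maturation. The 9 regulators summed to 12.0 CPM there and to between 5.52 and 8.38 CPM in the others. Counting the members, vehicle replicate 3 was the highest library for 3 of 13 heme synthesis genes, 11 of 18 membrane genes, 8 of 9 regulators and 11 of 16 reticulocyte genes of the count table.

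The 6 regulators among the 18 were 5 transcription factors and Epor, the erythropoietin receptor of the cell surface, which had 24 counts in vehicle replicate 3 and at most 10 in another library. Gata1, the factor that binds GATA sites in erythroid genes, had 28 counts in vehicle replicate 3 and 0 in each other library. Klf1, which binds CACCC elements and is needed for beta globin transcription, had 42 counts there and 2 in all other libraries together. Gfi1b had 22 counts against 4, Nfe2 37 against 18 and Myb, a factor of dividing precursors, 48 against 17. Tal1, which is also active in endothelium, was above the limit in every library, with 143 counts in vehicle replicate 3 and 42 to 55 elsewhere.

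Of the red cell membrane list, 7 genes were among the 18. The blood group proteins Kel and Rhd had 45 and 62 counts in vehicle replicate 3 and 0 elsewhere, and Rhag had 68 counts against 4. Epb42, a cytoskeletal anchor, had 75 counts against 2, and Ermap had 158 against 16. By contrast Ank1, Tmod1 and Aqp1, which muscle fibers or vessels also express, were at 0.478, 0.456 and 1.14 times the median of the others in CPM. Epb41, Xk and Icam4 were at 0.781, 0.503 and 0.422 times.

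The embryonic and minor globins were at or near 0 throughout. Of the 6 that the count table lists, 5 had 0 counts in all libraries and Hbq1b had 12 in vehicle replicate 3 and 4 in BML-260 replicate 3. A count of 0 allows up to 3 counts in a library.

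**Figure D2:**
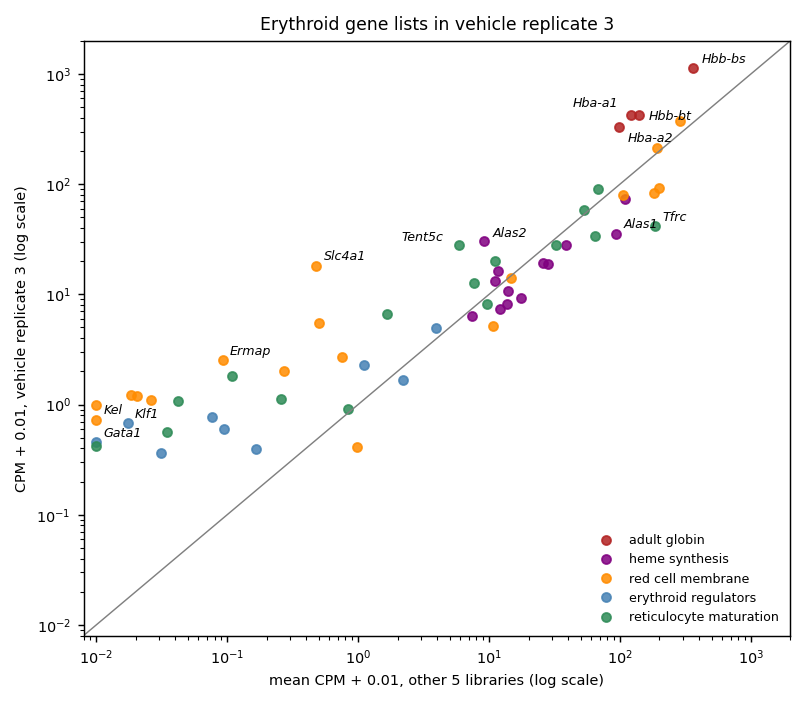
Each point is a gene of 5 erythroid lists, placed by its mean TMM-scaled CPM in the other 5 libraries and by its CPM in vehicle replicate 3, both with 0.01 added and on log axes; the line marks equal levels. The 4 globins and Alas2 lie above the line, Slc4a1 lies further above it, and genes such as Gata1 and Kel, with 0 counts in the other 5 libraries, lie at its left edge.

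Neutrophil and macrophage markers also stood high in vehicle replicate 3, and platelet markers did so in part. The summed CPM of 10 neutrophil markers was 223 there and between 2.47 and 54.6 in the other libraries. Its granule genes Ngp, Camp and Ltf, which are transcribed in the precursors of bone marrow, had 1036, 494 and 1211 counts in vehicle replicate 3 and at most 8, 0 and 14 in any other library. The summed CPM of 10 macrophage markers was 347 against 72.7 to 132, and that of 13 platelet markers was 26.3 against 5.99 to 16.6. In CPM, vehicle replicate 3 was the highest library for all 10 neutrophil and all 10 macrophage genes, but for only 5 of the 13 platelet genes. Pf4 had 729 counts there and at most 238 elsewhere, while Tubb1 had 81 there and 89 in vehicle replicate 2. Endothelial markers, at 296 CPM against 260 to 357 CPM, lay within the range of the others in this unit. Lymphocyte markers summed to between 0.660 and 1.59 CPM over the 5 others and to 0.718 CPM in vehicle replicate 3. The part of these cells in the differences of the members was not tested.

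**Figure D3:**
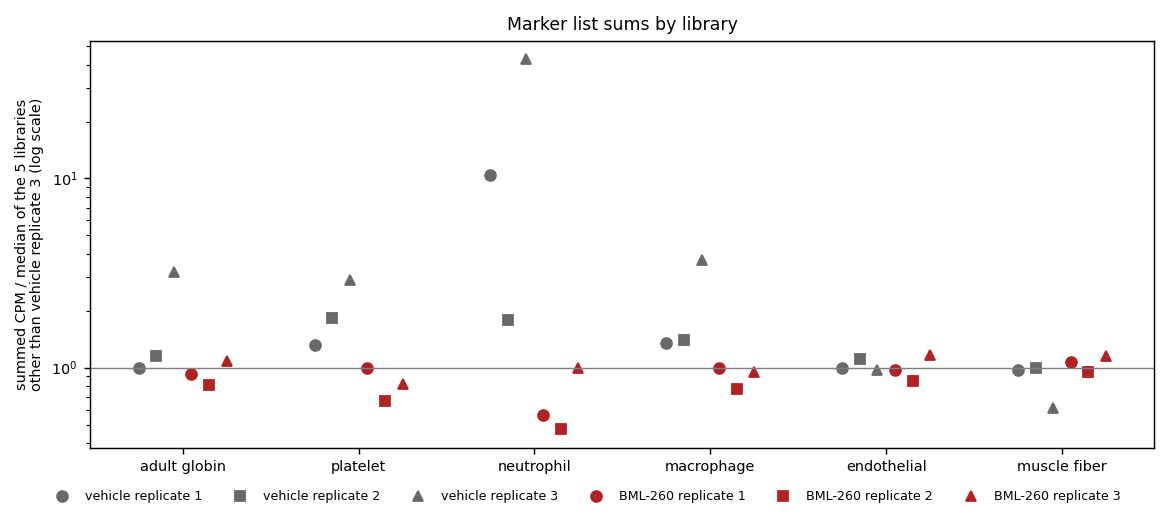
Summed TMM-scaled CPM of 6 marker lists in each library, divided by the median of the 5 libraries other than vehicle replicate 3, on a log axis. Vehicle replicate 3 is at 3.21 for adult globins, 42.7 for neutrophil markers, 3.70 for macrophage markers, 0.969 for endothelial markers and 0.612 for muscle fiber markers.

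The second question was whether the members differed between BML-260 and vehicle. All 6 had a lower fitted level with BML-260. None had an adjusted p under 0.05 by edgeR (quasi-likelihood F-test, Benjamini-Hochberg), and 0 of all 16188 genes did, with 966 (5.97%) at an unadjusted p under 0.05. By DESeq2, 95 genes (0.587%) had an adjusted p under 0.05, and no member was among them. In bulk tissue, fewer cells with these transcripts and less RNA per such cell cannot be told apart. A looser threshold asked for an unadjusted p under 0.05 and a 1.3-fold difference. At that threshold 4 of the 6 members (Hba-a1, Hba-a2, Alas2 and Slc4a1) were lower, as were 4.86% of all genes tested, while 0 members and 0.896% of genes were higher.

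Hba-a1 differed by a log2 fold change of -1.18 (SE 0.43, n = 3 per group, adjusted p = 0.788 by edgeR) and Hba-a2 by -1.12 (SE 0.41, adjusted p = 0.788). Without vehicle replicate 3 these were -0.45 (SE 0.19, unadjusted p = 0.0351 by edgeR) and -0.43 (SE 0.19, unadjusted p = 0.0423). Both alpha genes thus stayed past the looser threshold on 2 vehicle libraries, where 2.92% of 16502 genes were lower at that threshold, but they share most of their sequence and are not separate pieces of evidence. Summed to 1 gene, alpha globin differed by -1.15 (SE 0.42) with all libraries and by -0.44 (SE 0.19) without vehicle replicate 3.

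Hbb-bs differed by a log2 fold change of -0.82 (SE 0.43, adjusted p = 0.788 by edgeR) and Hbb-bt by -0.81 (SE 0.40, adjusted p = 0.788). Without vehicle replicate 3 the values were -0.06 (SE 0.15) and -0.10 (SE 0.15). The beta globin difference was thus smaller than its standard error once that library was left out.

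Alas2 differed by -1.05 (SE 0.41, adjusted p = 0.788 by edgeR), and by -0.32 (SE 0.18) without vehicle replicate 3. Slc4a1 showed the widest gap, -4.04 (SE 1.33, adjusted p = 0.744 by edgeR), and differed by -0.60 (SE 0.53) without that library. With vehicle replicate 3 left out, neither was at the looser threshold. In CPM the groups did not overlap for Hba-a1, Hba-a2 and Alas2, all lower with BML-260, as for 6.91% of the genes tested, and in TPM only for Hba-a1 (7.54% of genes).

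**Figure D4:**
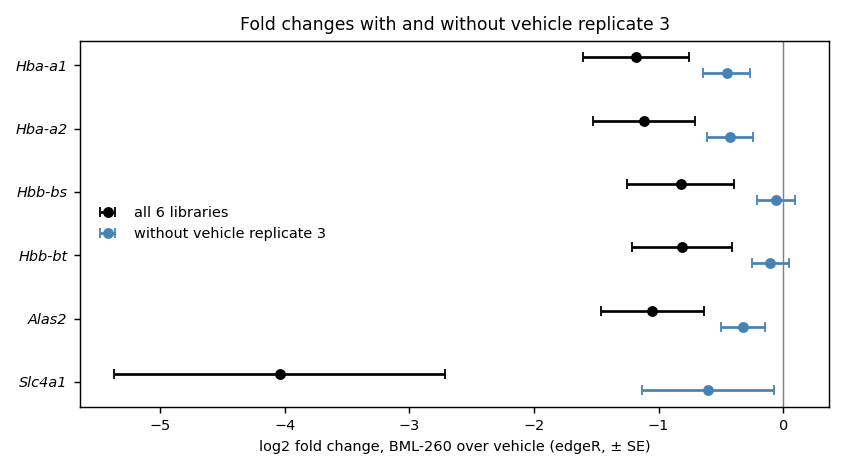
Log2 fold change of each member, BML-260 over vehicle, from edgeR with its standard error as the bar, with all 6 libraries (black) and without vehicle replicate 3 (blue). All values are below 0; the beta globins move from -0.82 and -0.81 to -0.06 and -0.10, and Slc4a1 from -4.04 to -0.60.

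As 1 value per library, the summed globin TPM averaged 4259 ± 3861 in vehicle libraries and 1802 ± 305 in BML-260 libraries (mean ± SD, n = 3 each). The difference was -0.88 on the log2 scale (2-sided exact permutation p = 0.3, where 3 against 3 cannot go below 0.1). Without vehicle replicate 3 it was -0.18. Relative to the endothelial markers, which follow the vessels, the globin sum was 14.3, 14.8 and 44.3 with vehicle and 13.1, 13.3 and 12.2 with BML-260. In vehicle replicate 3 the globin TPM was 4.49 times the median of the others and this ratio 3.33 times. The endothelial sum was thus higher there in TPM, unlike in CPM. These groups did not overlap (log2 difference -0.71, exact permutation p = 0.1), and the difference was -0.18 without vehicle replicate 3. Over 9 sums and ratios the Benjamini-Hochberg adjusted p of this permutation test was 0.225. With BML-260 replicate 1, 2 or 3 left out, the exact permutation test gave p = 0.4, 0.4 and 0.5. With any 1 vehicle library left out, the exact permutation test gave p = 0.1. Relative to the muscle fiber markers in place of the endothelial ones, the groups overlapped in TPM (log2 difference -1.06, exact permutation p = 0.2). In CPM they did not overlap (-1.05, exact permutation p = 0.1).

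The balance of alpha to beta globin was lower in every BML-260 library than in any vehicle library. The ratio of summed alpha to summed beta globin TPM was 0.566, 0.584 and 0.551 in vehicle replicates 1, 2 and 3. It was 0.465, 0.380 and 0.479 in BML-260 replicates 1, 2 and 3. Vehicle replicate 3, with the most globin, was close to the other vehicle libraries in this ratio.

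The mean ratio was 0.567 ± 0.016 in the vehicle group and 0.442 ± 0.054 in the BML-260 group (mean ± SD, n = 3 each). The ratio was 22.5% lower with BML-260 by geometric means, a log2 difference of -0.37 (2-sided exact permutation p = 0.1, the lowest possible). Over 9 ratios and sums compared this way the Benjamini-Hochberg adjusted p was 0.225. In counts, alpha globin was 33.3%, 34.0% and 32.7% of the globin counts with vehicle and 29.1%, 25.1% and 29.7% with BML-260. The 95% Wilson intervals of these shares, which cover counting error only, ran from 32.4% to 34.5% over the vehicle libraries and from 24.6% to 30.2% over the BML-260 libraries.

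Leaving out any 1 library gave log2 differences between -0.43 and -0.26, each with p = 0.1 in the exact permutation test. The alpha transcripts are richer in G and C than the beta transcripts (57.04% against 51.03%), so the ratio was also computed after removal of each library's trend with GC content, an alternative added after the values were seen. The log2 difference was then -0.41 (exact permutation p = 0.1). The trend itself shifted alpha against beta by -0.07 to 0.09 on the log2 scale in single libraries.

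Other ratios within a library were computed after the values were seen. Within the pairs the measured ratios were steady: Hba-a2 over Hba-a1 was between 0.764 and 0.826 in all 6 libraries, and Hbb-bt over Hbb-bs between 0.379 and 0.414 (exact permutation p = 0.2 and p = 0.8). Most coding windows are shared within a pair, and how shared reads were counted is not given. A steady ratio therefore cannot show that the copies themselves kept their balance. Alas2 per 1000 beta globin TPM was 6.47, 6.54 and 6.32 with vehicle and 5.83, 5.00 and 5.52 with BML-260 (p = 0.1 by the exact permutation test). Alas2 per 1000 alpha globin TPM was 11.2 to 11.5 with vehicle and 11.5 to 13.2 with BML-260 (p = 0.1 by the exact permutation test). The log2 differences were -0.24 per beta globin and 0.12 per alpha globin, so Alas2 lay between the globin pairs in how it differed from vehicle. These differences were not tested against each other. Both ratios are tied by arithmetic to the alpha to beta ratio and are not separate results. The nearest values per alpha globin were 11.46 with vehicle and 11.52 with BML-260. Outside vehicle replicate 3 they rest on 318 to 472 Alas2 counts, and counting error was not included.

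**Figure D5:**
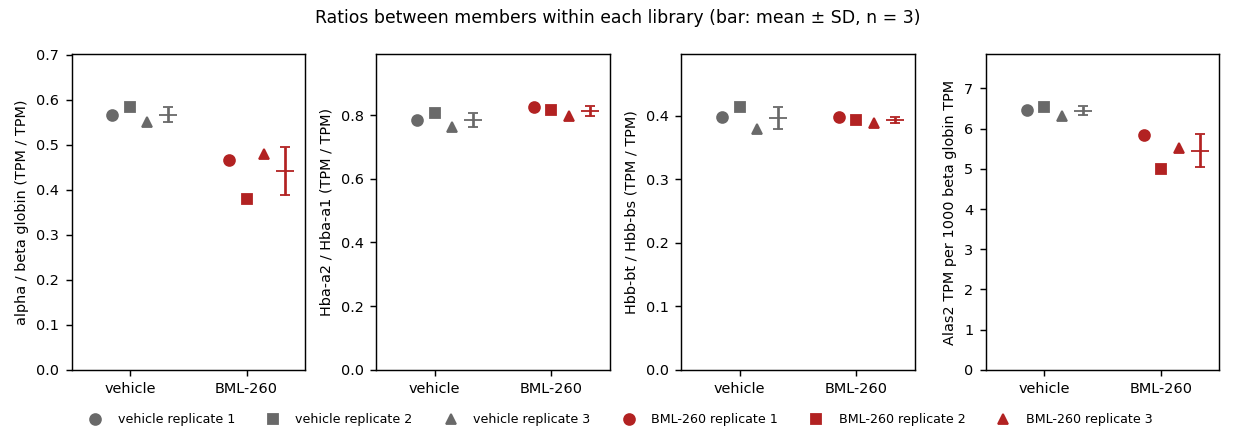
Ratios between members in each library from TPM, on linear axes from 0, with the mean and SD of each group (n = 3) beside the points. The alpha to beta ratio is 0.551 to 0.584 with vehicle and 0.380 to 0.479 with BML-260, while the ratios within the alpha pair and within the beta pair overlap.

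The heme synthesis pathway had 1 gene at the looser threshold with all libraries and 0 without vehicle replicate 3. Of its 13 genes, all tested, 10 had a higher and 3 a lower fitted level with BML-260. Alas2 was the gene at the looser threshold, which 5.75% of all genes passed in either direction. A single gene of 13 is close to that share. The median log2 fold change was 0.21, against -0.0039 for all genes. Alas1, the form of the first enzyme that other tissues use, differed by 0.26 (SE 0.34), and Fech, which inserts the iron, by 0.19 (SE 0.18). In vehicle replicate 3 they were at 0.382 and 0.674 times the median of the other libraries in CPM, whereas Alas2 was at 3.23 times. Slc25a37, which brings iron into the mitochondria of erythroblasts, differed by -0.33 (SE 0.17) and was at 1.33 times.

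Of the 18 red cell membrane genes, 12 passed the filter on low counts. Among those, 8 had a higher and 4 a lower fitted level, and 3 were lower at the looser threshold, Slc4a1 and Dmtn among them, beside 4.86% of all genes. Their median log2 fold change was 0.06. The muscle-expressed Tmod1, which caps actin filaments, differed by 0.33 (SE 0.28), and the water channel Aqp1 by 0.10 (SE 0.23). Without vehicle replicate 3, 0 of the 12 were at the threshold, which 3.98% of all genes passed in that fit.

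Of 9 erythroid regulators only 3 passed the filter, and 0 were at the threshold. Of 17 genes of reticulocyte maturation, 12 passed the filter, and 3 were lower at the threshold, Mkrn1 and Tent5c among them, beside 4.86% of all genes, with a median of -0.06 over the 12. Mkrn1 had 667, 417 and 1252 counts with vehicle and 572, 459 and 387 with BML-260 (log2 fold change -0.56, SE 0.21). Tfrc, the transferrin receptor by which erythroblasts and muscle take up iron, differed by 0.02 (SE 0.54), and Bpgm, which makes the regulator of hemoglobin's oxygen affinity, by 0.41 (SE 0.23). Without vehicle replicate 3, 0 of these 12 genes were at the threshold, beside 3.98% of all genes.

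Genes that clear hemoglobin and handle its iron went in both directions, and 6 were lower at the looser threshold. Of 17, 15 passed the filter, and 7 of these had a higher and 8 a lower fitted level. At the looser threshold 6 were lower and 0 higher (4.86% and 0.896% of all genes), and the median of the 15 was -0.14. Hmox1, the enzyme that opens the heme ring, differed by -0.80 (SE 0.27), and the ferritin chains Fth1 and Ftl1 by -0.61 (SE 0.20) and -0.61 (SE 0.25). The other 3 were the transferrin gene Trf, the hemoglobin binder Hp and the macrophage scavenger receptor Cd163. Without vehicle replicate 3, 2 of the 15 were at the threshold, with 3.98% of all genes. Cd163 and Hp were at 5.03 and 27.8 times the median of the others in vehicle replicate 3 in CPM, beside the macrophage and neutrophil markers given above.

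Markers of other blood cells and of macrophages were also compared between the groups, at the same unadjusted threshold, and 0 of them had an adjusted p under 0.05 by edgeR. Over all genes, 4.86% were lower at the threshold, and 3.98% were at it in either direction without vehicle replicate 3. Of 10 platelet genes tested, 9 had a lower and 1 a higher fitted level, 5 were lower at the threshold, 5 were at it without that library, and the median log2 fold change was -1.16, or -1.07 without that library. Tubb1, the tubulin of platelets, had 48, 89 and 81 counts with vehicle and 13, 5 and 17 with BML-260. Of 6 neutrophil genes tested, 6 were lower at the threshold and 5 were at it without that library, with a median of -4.00, or -3.01 without that library. The neutrophil markers summed to 54.6 CPM in vehicle replicate 1, 9.30 in vehicle replicate 2 and 2.47 to 5.23 with BML-260. What remained without vehicle replicate 3 thus rested mostly on vehicle replicate 1. Some of the neutrophil and platelet genes passed the filter on low counts through the vehicle libraries. Among them were Retnlg, with 0, 0 and 10 counts with BML-260, and the platelet gene Clec1b, with 4, 0 and 9. For such genes a lower level was partly set by the filter. The counts of lower genes and the medians of these 2 lists are therefore not separate evidence. Of 10 macrophage genes tested, 8 were lower at the threshold and 7 were at it without that library, with a median of -1.34, or -0.61 without it. These differences stand beside those of the globins and of the iron genes Hmox1, Fth1 and Cd163, and their part in them was not tested. The median of the 4 globins was -0.97 and -0.26 in the same fits. That the lists differ from each other was not tested.

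Myoglobin (Mb), the oxygen store of the muscle fiber, was read beside the blood globins. In CPM it was at 0.353 times the median of the others in vehicle replicate 3, and its TPM was 0.213 times the summed globin TPM in vehicle replicate 3 and between 1.27 and 2.25 times in the other libraries. Between the groups Mb differed by a log2 fold change of 0.09 (SE 0.41), and by -0.27 without vehicle replicate 3.

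The genes whose pattern over the 6 libraries was most like the mean of the members were Mt1, Trim72, Gas5, Klf15 and Tnc, followed by Mfap5, Slc7a1, Snhg5, Pla2g12a and Syne3. Pearson's r of log2 CPM was between 0.994 and 0.999 over 6 libraries. For comparison, r of each member with the mean of the others was between 0.943 and 0.992, and 30 of 13641 genes with a curated name had an r over 0.99. These likenesses rest on vehicle replicate 3, which was the highest library for 31.4% of all genes tested. Mt1, a metallothionein, was at 21.5 times the median of the others there, and Trim72, a membrane repair protein of muscle, at 1.95 times.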

How the data were processed

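Total RNA of 6 TA muscles (3 vehicle, 3 BML-260) was sequenced, 1 library per mouse. Per the labels, the authors trimmed reads with Trimmomatic 0.38, and StringTie 2.1.3b, Bowtie2 2.3.4.1 and HISAT2 2.1.0 were the tools run on mm10. They deposited raw counts per gene for all libraries, without normalization, and TPM per gene for each library. Whether strand was used in counting, and what was done with reads that map to several places, is not given in the sources used here. Of 45777 identifiers in the count table, 45679 matched a RefSeq gene table of GRCm38.p6.

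Counts were tested with edgeR 4.0.16 in R 4.3.3 (TMM, filterByExpr leaving 16188 genes, quasi-likelihood F-test, Benjamini-Hochberg). A gene could pass this filter through a single group in which it was high. The standard error is the size of the log2 fold change divided by the square root of F. Sums and ratios per library were compared by 2-sided exact permutation tests. Tests used the 6 libraries as replicates, and the labels name no litters or batches. The tests were tested on simulated data, in which edgeR called 0 genes where nothing was changed.

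Sequences came from RefSeq (GRCm38.p6, promoters) and GENCODE M21 transcripts, and promoters were aligned with Biopython 1.88. Slc4a1 had no entry in the promoter table. The members and gene lists were chosen with earlier results of these data known. Named are the members, per list up to 4 genes (the 2 of highest mean TPM and the 2 of smallest p), the 10 genes most like the members, and genes stated to be chosen after their values were seen. Genes named to spell out a count of calls were also chosen after their values were seen. Ahsp, of the reticulocyte list, was not matched. Some genes of the lists are counted but not reported here by name. Alternatives were RLE and upper quartile scaling, other filters, DESeq2 1.42.0, limma 3.58.1 on log2 TPM (pseudocounts 1 and 0.1), summed copies, a replicate block and leaving out each library.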

Additional observations from a re-analysis of the deposited data

How the results depend on the processing

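In 81 of 81 alternative fits of the members the log2 fold change was negative, and 0 had an adjusted p under 0.05 (0.193 to 1.00). Leaving out 1 library moved Hba-a1 between -1.47 and -0.45, Hba-a2 between -1.40 and -0.43, Hbb-bs between -1.11 and -0.06, Hbb-bt between -1.09 and -0.10, Alas2 between -1.33 and -0.32 and Slc4a1 between -4.58 and -0.60, the smaller size each time without vehicle replicate 3. The globin sum moved between -1.27 and -0.18, its ratio to endothelial markers between -0.99 and -0.18, and the alpha to beta ratio between -0.43 and -0.26. Genes at the looser threshold (1.3-fold, unadjusted p under 0.05) numbered 931, but 1416 without a filter, 446 by limma on log2 TPM with pseudocount 1, and 503 (without BML-260 replicate 2) to 2223 (without vehicle replicate 1) with 1 library left out. Genes with an adjusted p under 0.05 numbered 0 by edgeR, 1 without a filter, 1 with at least 10 counts in every library, 95 by DESeq2, and 0 to 9 with 1 library left out (9 without vehicle replicate 1 and 6 without vehicle replicate 3). The cause was not tested. DESeq2 gave no p for Slc4a1. Limma on log2 TPM with pseudocount 0.1 placed the median of all genes at -0.14, and the members' values lay below it.

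Same-numbered libraries of the groups deviated together only weakly (r = 0.162, 0.0541 and 0.110 across genes). Each library still correlated best with its own number, with r between -0.124 and -0.0206 for unlike numbers. Whether same-numbered libraries share more than a number was not tested. With the replicate block, 1057 genes were at the looser threshold, Hba-a2 was at -0.95 and Slc4a1 at -2.24 (unadjusted p = 0.128 by edgeR), so that Slc4a1 was no longer at that threshold. The exact test within numbers gave p = 0.25, the smallest it allows, for the alpha to beta ratio. With 3 mice per group no exact test could go below 0.1, and with 9 to 31 counts of Slc4a1 in 5 libraries its differences there rest on few reads.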
